A study of Mus musculus with 8 samples.

Results

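Iron is taken up, moved, stored, exported and sensed by products of the 9 genes described here: Tfrc, Steap3, Slc11a2, Slc25a37, Fth1, Slc40a1, Hmox1, Ireb2 and Aco1. They were followed in bone marrow progenitor cultures in which the Polycomb gene Pcgf1 was knocked down. The genes were chosen by symbol, and their probes were found on the arrays by matching RefSeq accessions. All 9 were found, among 32970 genes and unnamed transcripts on the array, with 13 of the 41174 probes, and every one of the 13 probes was well above background on all 8 arrays, so no member was lost to the filter on dim probes.

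The cells were lineage-depleted bone marrow cells (HSPCs, haematopoietic stem and precursor cells) from 4 Runx1 Δ/Δ mice whose strain was mixed C57Bl/6 and 129SvJ; the age of the mice and the way the deletion was driven are not given in the sources used here. They grew for 2 days with SCF at 50 ng/ml, Flt3 ligand at 100 ng/ml, IL-11 at 100 ng/ml and IL-3 at 10 ng/ml, were transduced with a retroviral shRNA against Pcgf1 or a control shRNA, and received puromycin at 5 µg/ml for 36 h from 24 h after transduction. Each mouse gave 1 culture of either kind, so 4 arrays with the control shRNA were compared with 4 arrays with the Pcgf1 shRNA, 1 Cy3-labelled RNA on each. Both groups carry the Runx1 deletion, so the comparison speaks of Pcgf1 knockdown in Runx1-deleted cells only. On the arrays 54.8% to 62.0% of the spots were well above background and 0 were saturated, and the precision is limited by the 4 arrays a group. Pcgf1 itself read 1.36 lower on the log2 scale with its shRNA (limma adjusted p 0.0197), a check of the labels. The progenitor marker Cd34 had a mean log2 signal of 3.81 in the control cultures, and markers of red cell precursors (the globin gene Hba-a1, 6.87) and of mast cells (Cma1, 3.92) were also well above background, so the cultures held transcripts of more than progenitors.

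Cells take up iron bound to transferrin through the transferrin receptor, reduce it in the endosome and carry it into the cytosol, from where it goes to mitochondria for haem and iron-sulfur clusters, into ferritin for storage, or out of the cell through ferroportin. Iron regulatory proteins sense the cytosolic pool: when iron is scarce they bind hairpins in messenger RNAs, protecting the Tfrc transcript from decay and blocking translation of ferritin and ferroportin. Red cell precursors import more iron than other marrow cells, and macrophages recover it from haem. An array reads transcript levels only, so control at translation is outside these measurements.

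Promoter sequences show the members from the side of their genes. RefSeq windows of assembly GRCm38.p6 were found for 5 of the 9 members, 10 windows in all. Shown are the 250 bases before the outermost annotated start of the endosomal pair Tfrc (chr16:32608646-32608895, plus strand) and Steap3 (chr1:120271081-120271330, minus strand), which read lower with the Pcgf1 shRNA in every mouse, and of Aco1 (chr4:40143015-40143264, plus strand), which did not. Of all genes 16.2% were lower in 4 of 4 mice, and in mouse 1 the Steap3 difference was −0.04. A link between the promoter sequences and the changes was not tested. Capitals mark matches, on either strand, to the GATA core AGATAA, the E-box CACGTG, the GC box GGGCGG or the motif CCAAT.
Tfrc: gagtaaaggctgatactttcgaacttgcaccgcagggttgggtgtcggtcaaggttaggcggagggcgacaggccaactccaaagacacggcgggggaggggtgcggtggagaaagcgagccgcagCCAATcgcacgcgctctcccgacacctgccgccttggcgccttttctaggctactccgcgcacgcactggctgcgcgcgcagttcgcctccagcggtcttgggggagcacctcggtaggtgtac
Steap3: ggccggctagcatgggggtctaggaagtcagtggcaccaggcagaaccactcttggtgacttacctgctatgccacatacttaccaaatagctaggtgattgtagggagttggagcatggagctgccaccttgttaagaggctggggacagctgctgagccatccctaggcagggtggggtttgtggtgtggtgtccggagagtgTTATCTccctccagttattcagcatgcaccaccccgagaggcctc
Aco1: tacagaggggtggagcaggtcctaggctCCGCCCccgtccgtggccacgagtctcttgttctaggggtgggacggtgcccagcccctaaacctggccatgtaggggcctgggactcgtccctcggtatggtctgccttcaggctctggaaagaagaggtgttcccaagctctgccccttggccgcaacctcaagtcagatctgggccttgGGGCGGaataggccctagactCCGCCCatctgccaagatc

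The Tfrc window held 1 match to CCAAT, 124 to 120 bases before the start, the Steap3 window 1 GATA core on the reverse strand, 45 to 40 bases before it, and the Aco1 window 3 GC boxes. Of all 32851 windows of this length 33.8% held CCAAT, 9.99% AGATAA, 32.7% GGGCGG and 6.02% CACGTG, so each of these matches is common. No 2 of the matches shown overlap. The window of a second Tfrc start held 1 GC box and no CCAAT. Steap3 has 3 further annotated starts, whose windows held no AGATAA but 1 GC box, 3 GC boxes and 1 CCAAT in turn. Which start these cultures used was not measured.

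With the Pcgf1 shRNA the iron genes as a group read lower by a small amount. The brightest probe was below control on average for 8 of 9 members, with a median log2 change of −0.23, where 49.5% of all 17292 genes tested were below and their median was 0.00. Dimmer probes of Slc25a37 and Aco1 read above control (0.06 and 0.17), while those of Slc11a2 and Ireb2 kept the sign of the brightest. The member median is the value of Fth1, whose change before scaling was −0.04. In limma without a block 0 of 9 members passed an adjusted p of 0.05, beside 0.763% of all genes (0.168% lower, 0.596% higher); 2 of the 9 had an unadjusted p under 0.05, beside 12.2%. Since the 2 cultures of a mouse come from the same animal, the fit with mouse as a block stands beside it. With the block 2 of 9 fell, Slc40a1 and Tfrc, and 0 rose, beside 5.35% of all genes that passed, 2.43% falling and 2.92% rising. The lowering in 4 of 4 mice of Tfrc, Steap3, Slc11a2 and Slc40a1 was seen in 16.2% of all genes, and 15.6% were higher in 4 of 4. The member median was −0.10, −0.41, −0.44 and −0.35 in mice 1 to 4. Mouse 1 therefore showed the smallest shift, and the median stayed negative in each of the 4. The members were chosen with earlier results of these data known, so these counts are a description.

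**Figure D1:**
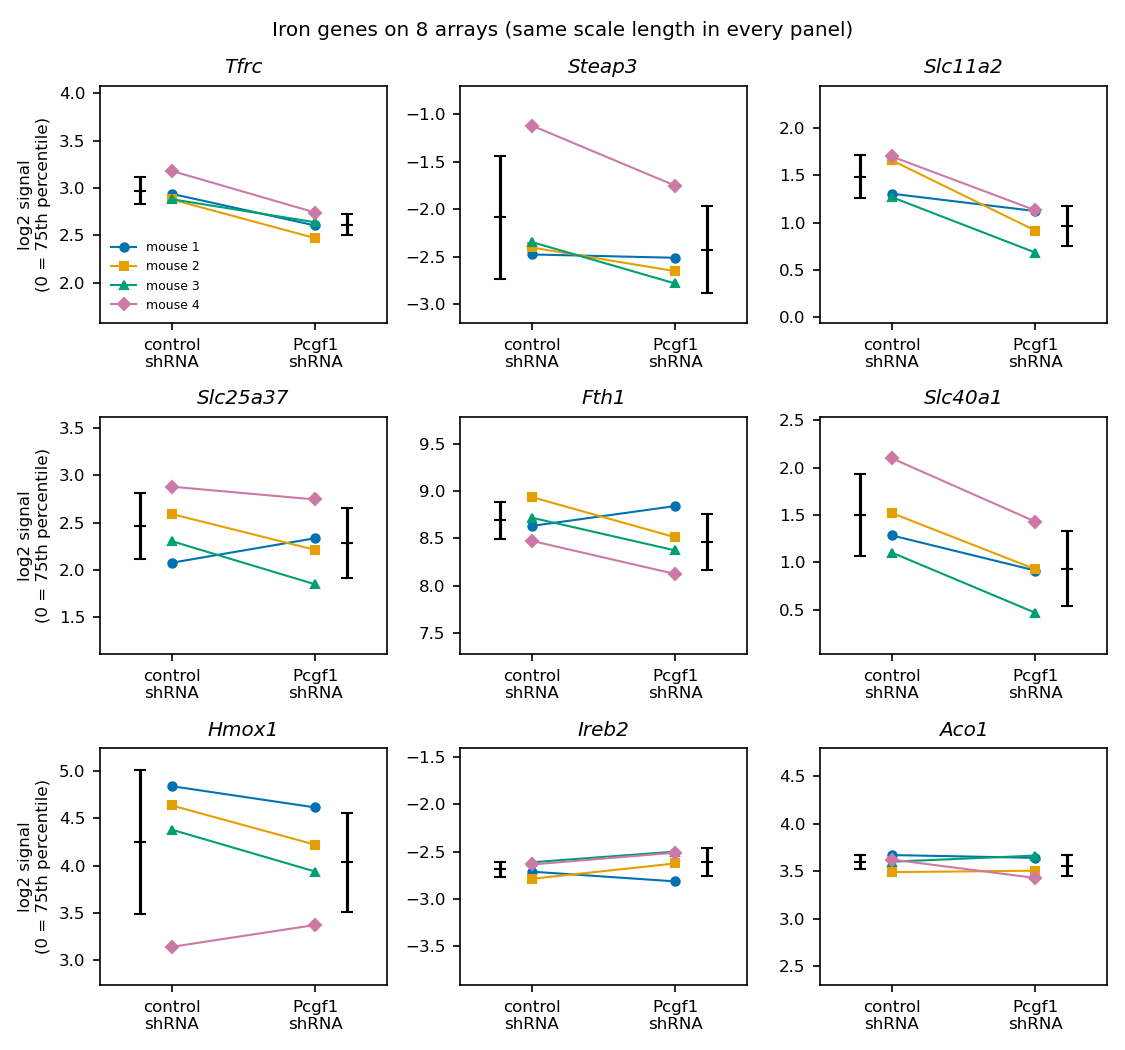
Log2 signal of the brightest probe of each iron gene on the 8 arrays, with 0 at the 75th percentile of the array; a line joins both cultures of a mouse, and the black bars give the mean and SD of the 4 arrays of a group. The lines of Tfrc, Steap3, Slc11a2 and Slc40a1 slope down in 4 of 4 mice, those of Ireb2 and Aco1 are nearly flat, and mouse 4 is highest for Steap3 and Slc40a1 and lowest for Hmox1 in both groups.

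Tfrc (chromosome 16, 32608896 to 32632794, GRCm38.p6) encodes the transferrin receptor, the main door for iron into dividing cells. Its log2 signal was 2.94, 2.88, 2.88 and 3.18 with the control shRNA in mice 1 to 4, and 2.60, 2.47, 2.64 and 2.74 with the Pcgf1 shRNA. Every Pcgf1 shRNA array lay below every control array, a pattern that 2.91% of all genes showed in this direction and 4.25% in the other. The mean went from 2.97 ± 0.14 to 2.61 ± 0.11 (SD, n = 4 each), which left 78.1% of the control level (log2 change −0.36; SE 0.10 and adjusted p 0.187 without a block, SE 0.07 and adjusted p 0.0485 with it). Permuting the 8 Tfrc values exactly, two-sided, gave p = 0.0286, the smallest that 4 against 4 unpaired values allow. Turning the signs of the 4 differences within mice, which keeps the pairing, gave an exact p = 0.125, the smallest that 4 pairs allow, so this paired test cannot pass 0.05. Mice 1 and 2 shared a slide and gave −0.37; mice 3 and 4 shared the other and gave −0.34. The call with the block was lost when any 1 mouse was left out (adjusted p 0.0986, 0.243, 0.110 and 0.0924 without mice 1 to 4), although the change stayed between −0.39 and −0.33.

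The Tfrc probe was printed 10 times on each array, which shows how well a single hybridisation was read. The spots of an array had an SD of 0.04 to 0.07 on the log2 scale, and in each of the 4 mice the lowest of the 10 control spots lay above the highest of the 10 Pcgf1 shRNA spots. In mouse 3, where the difference between the cultures was smallest (−0.24), the control spots ran from 2.80 to 2.94 and the Pcgf1 shRNA spots from 2.56 to 2.71. In mouse 4, where it was largest (−0.44), they ran from 3.12 to 3.22 and from 2.66 to 2.79. Before scaling the spots were apart, with control higher, in mice 1 and 4 only. In mouse 2 they overlapped (3586.9 to 4170 for control and 3440.6 to 4032.2 for Pcgf1 shRNA). In mouse 3 the unnormalised mean was higher with the Pcgf1 shRNA (4494.8 against 4260.5). The separation in mice 2 and 3 thus rests on the scaling. Spots of 1 array share their RNA, so they measure the reading of the array and not the spread between cultures.

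**Figure D2:**
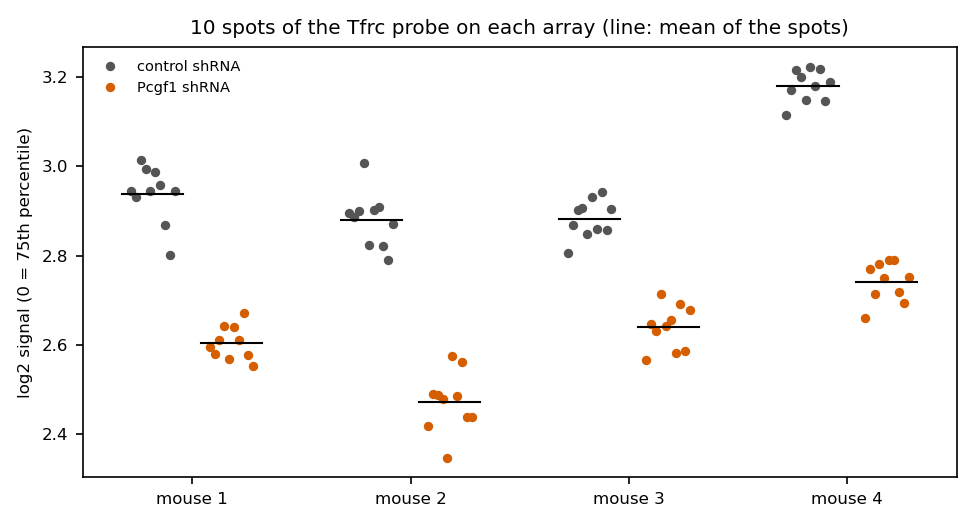
Log2 signal of the 10 spots of the Tfrc probe on each array, by mouse, with 0 at the 75th percentile of the array; grey points are control shRNA, orange points Pcgf1 shRNA, and a line marks the mean of the 10 spots. The 2 clouds of a mouse do not overlap, with differences of −0.33, −0.41, −0.24 and −0.44 in mice 1 to 4.

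Steap3 (chromosome 1, 120226414 to 120271081) encodes the reductase that converts transferrin iron in the endosome of red cell precursors. Its log2 signal was −2.48, −2.40, −2.35 and −1.12 in the control cultures of mice 1 to 4 and −2.51, −2.65, −2.78 and −1.75 with the Pcgf1 shRNA. Both cultures of mouse 4 stood above all 6 others, and the groups overlapped. The log2 change was −0.34 (SE 0.34, adjusted p 0.744; block SE 0.11, adjusted p 0.143) and lower in 4 of 4 mice, from −0.04 in mouse 1 to −0.63 in mouse 4. It was −0.14 on the first slide and −0.54 on the second.

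Slc11a2 (chromosome 15, 100387898 to 100424209) encodes DMT1, which carries the reduced iron out of the endosome. Its brightest probe read 1.31, 1.66, 1.27 and 1.70 in the control cultures and 1.12, 0.92, 0.68 and 1.13 with the Pcgf1 shRNA, again with every Pcgf1 shRNA array below every control array. The level was 69.8% of control (log2 change −0.52, SE 0.15, adjusted p 0.189; block SE 0.11, adjusted p 0.0514; exact permutation p = 0.0286 unpaired and 0.125 paired), with −0.46 and −0.58 on the 2 slides. A second, dimmer probe of the gene read −0.34 (block adjusted p 0.0911) and was also lower in 4 of 4 mice. Slc11a2 therefore missed the threshold in both fits, with a 95% interval of −0.78 to −0.26 for the change in the fit with the block.

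Slc25a37 (chromosome 14, 69241848 to 69285544) encodes mitoferrin 1, which brings iron into the mitochondria of red cell precursors. Its brightest probe read 2.08, 2.59, 2.31 and 2.88 in the control cultures and 2.34, 2.21, 1.85 and 2.74 with the Pcgf1 shRNA. Mouse 1 was higher by 0.26, and the other 3 mice were lower by values from −0.46 to −0.14. The mean change of −0.18 (SE 0.22, adjusted p 0.807; block 0.471) came to −0.06 and −0.30 on the 2 slides. The dimmer probe disagreed in sign, with a change of 0.06 (SE 0.08) and 3 of 4 mice higher, so no direction is given for the gene. Slc25a28, which encodes mitoferrin 2 and was chosen after its values were seen, was 0.21 higher (adjusted p 0.520; block 0.155).

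**Figure D3:**
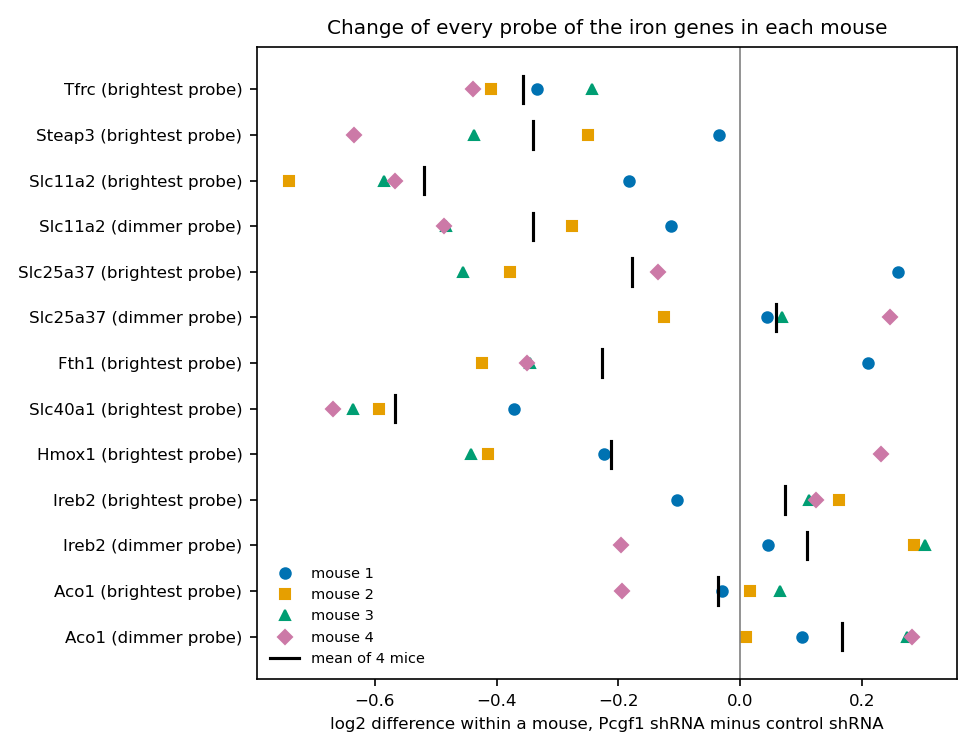
Log2 difference between the Pcgf1 shRNA and control shRNA cultures of each mouse for all 13 probes of the iron genes; points are mice and black bars the mean of the 4. All points of Tfrc, Steap3, Slc40a1 and both Slc11a2 probes lie below 0, whereas the 2 probes of Slc25a37 and of Aco1 have means on opposite sides of 0.

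Fth1 (chromosome 19, 9980600 to 9985111) encodes the heavy chain of ferritin, which oxidises iron for storage. It was among the brightest probes, with 9 to 20 of all probes at or above it on an array. Its log2 signal read 8.63, 8.94, 8.72 and 8.47 in the control cultures and 8.84, 8.51, 8.37 and 8.12 with the Pcgf1 shRNA. The change was −0.23 (SE 0.16, adjusted p 0.635; block 0.327), with mouse 1 higher by 0.21 and the other 3 lower by values from −0.42 to −0.35; on the 2 slides it was −0.11 and −0.35.

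The unnormalised Fth1 signal hardly differed between arrays. It lay between 238329 and 254163 on all 8, with an SD of 0.03 on the log2 scale, against 0.24 for the 75th percentile by which each array was scaled. Its change before scaling was −0.04, while the 75th percentile was 0.19 higher with the Pcgf1 shRNA on the log2 scale. Of the 100 brightest probes 2 had an unnormalised SD that low, Fth1 included, and their median was 0.13. The brightest probe of each array read 442171 to 517416 and no spot was marked as saturated. Whether the Fth1 spot still responds to more RNA at this brightness was not tested. The light chain gene Ftl1, chosen after its values were seen, read −0.14 (adjusted p 0.837; block 0.420). Fth1 and Ftl1 have processed pseudogenes and close copies that 1 probe may not separate.

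**Figure D4:**
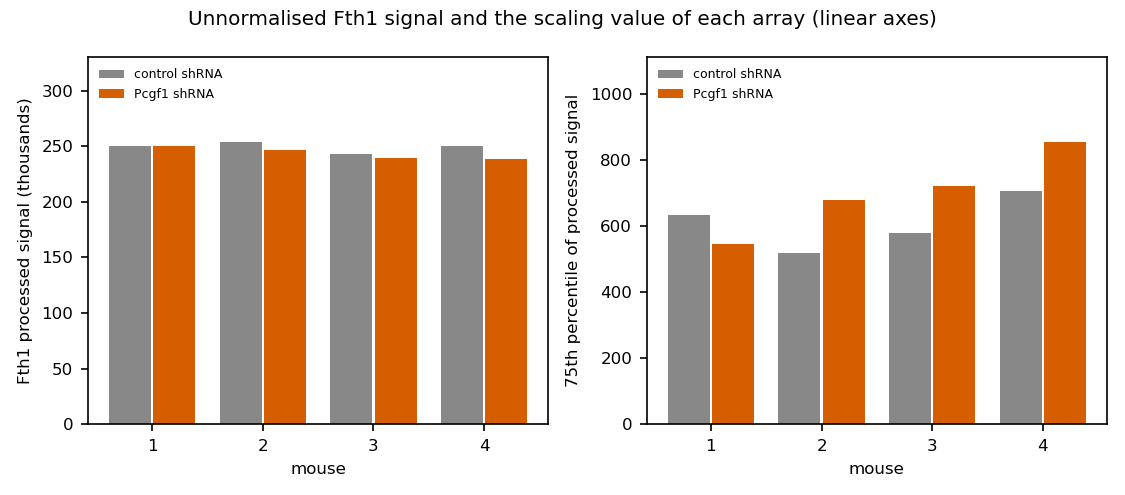
Unnormalised processed signal of the Fth1 probe, in units of 1000 (left) and the 75th percentile of the processed signal (right) on each array, on linear axes from 0; grey bars are control shRNA and orange bars Pcgf1 shRNA, 1 array each. The Fth1 bars lie between 238329 and 254163 units, while the percentile runs from 519 to 854.

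Slc40a1 (chromosome 1, 45908070 to 45926532) encodes ferroportin, the only known exporter of cellular iron, and had the largest change of the 9 members. Its log2 signal was 1.28, 1.52, 1.10 and 2.10 in the control cultures and 0.91, 0.93, 0.47 and 1.43 with the Pcgf1 shRNA. The groups overlapped, since both cultures of mouse 4 were the highest of their group, but each mouse was lower with the Pcgf1 shRNA, by −0.37, −0.59, −0.64 and −0.67. With mouse as a block Slc40a1 fell to 67.5% of control (log2 change −0.57, SE 0.08, adjusted p 0.0243), and without the block it did not pass (SE 0.26, adjusted p 0.431). The change was −0.48 and −0.65 on the 2 slides. With the block the call held without mouse 1 (adjusted p 0.0466) and was lost without mouse 2, 3 or 4 (0.133, 0.0732 and 0.0649), with changes of −0.63 to −0.53 throughout.

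Hmox1 (chromosome 8, 75093618 to 75100593) encodes haem oxygenase 1, which releases iron from haem and is strongly made by macrophages. It read 4.84, 4.63, 4.38 and 3.14 in the control cultures and 4.61, 4.22, 3.94 and 3.37 with the Pcgf1 shRNA. The control cultures thus ranged more widely (SD 0.76) than the change of −0.21 (SE 0.40, adjusted p 0.882; block SE 0.13, adjusted p 0.377). Mice 1 to 3 were lower, by −0.22, −0.41 and −0.44, and mouse 4, which had the lowest signal in both groups, was higher by 0.23. Without mouse 4 the change was −0.36 (adjusted p 0.323; block 0.0924).

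The genes of both iron regulatory proteins differed little between the groups. Ireb2 (chromosome 9, 54862658 to 54912534), which encodes IRP2, ran from −2.79 to −2.61 in the control cultures and from −2.82 to −2.50 with the Pcgf1 shRNA on its brightest probe. Its change was 0.07 (block 95% interval −0.11 to 0.26, adjusted p 0.614), and 0.11 on the dimmer probe. Aco1 (chromosome 4, 40143265 to 40199009), which encodes IRP1, a cytosolic aconitase when it holds an iron-sulfur cluster, ran from 3.49 to 3.67 in the control cultures and from 3.43 to 3.66 with the Pcgf1 shRNA. Its change was −0.04 (block 95% interval −0.22 to 0.15, adjusted p 0.818), and 0.17 on the dimmer probe. The sign of the first turned with median scaling (0.06), under which the median of all genes was 0.10. The slide values were 0.03 and 0.12 for Ireb2 and −0.01 and −0.06 for Aco1. The intervals of both brightest probes leave out a change as large as that of Slc40a1, though the difference between the genes was not tested.

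Other genes of iron handling came from lists set out by function. Of 6 measured genes of further iron uptake and reduction 0 passed without a block. With the block Tfr2, the second transferrin receptor and a partner of the erythropoietin receptor, fell (log2 change −0.97, adjusted p 0.0256; 0.485 without the block), and Trf, which encodes transferrin, rose by 0.61 (adjusted p 0.0189; 0.453 without it). Each moved the same way in 4 of 4 mice. Of 9 measured genes of storage, export and regulation 0 passed without a block, and with it Tmprss6, a protease that restrains hepcidin, fell by 1.05 (adjusted p 0.0441; 0.215 without it). Its signal was dim and well above background on 3 of 4 Pcgf1 shRNA arrays, so Tmprss6 passed the filter only through the control cultures. Among 18 genes of mitochondrial iron transport and iron-sulfur clusters 0 passed in either fit, and their median change was −0.01. Iscu, the scaffold on which clusters are built, read −0.18 and Fdxr, a ferredoxin reductase, 0.19.

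All 12 genes of haem synthesis were measured and 0 passed in either fit, but 10 were below control, with a median of −0.34. Ppox, the penultimate enzyme of the pathway, read −0.26 (adjusted p 0.365; block 0.149) and Slc25a38, a mitochondrial glycine carrier, −0.31 (0.504; block 0.122). The list median was −0.05, −0.48, −0.42 and −0.36 in mice 1 to 4, so here too mouse 1 moved least. The 10 measured genes of haem uptake, breakdown and export had a median of −0.15 with 0 passing in either fit; Hpx, which encodes the haem scavenger haemopexin, read −0.59 (block 0.0571) and Lrp1, its receptor, −1.06 (block 0.0705). Of 13 genes around NRF2 and BACH1, which control Hmox1, 0 passed in either fit and the median was 0.00. Nfe2l2, which encodes NRF2, read −0.17 (block 0.199) and Slc7a11, a cystine carrier, 0.68 (block 0.0598). Of 6 measured genes of iron shortage, hypoxia or DNA synthesis 1 rose with the block. This was Egln3, an oxygen-sensing prolyl hydroxylase that needs iron (0.61, adjusted p 0.0208; 0.363 without the block), while Bnip3 read 0.35 (block 0.123).

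Erythroid and macrophage markers were also lower with the Pcgf1 shRNA. All 18 measured erythroid markers were lower, with a median of −0.81; 5 fell with the block, among them Klf1, the erythroid transcription factor (−1.05, adjusted p 0.0483), and Ermap, an erythroblast surface protein (−1.53, 0.0310), and 0 without it. The other 3 that fell were Car2, Icam4 and Tspo2. Their mean log2 signal ran from 1.31 to 2.79 in the control cultures and from −0.15 to 2.25 with the Pcgf1 shRNA. Mouse 4 held the highest value of each group, as it did for Tfrc, Steap3, Slc11a2, Slc25a37 and Slc40a1. That rank was not particular to erythroid markers. Mouse 4 was also highest in both groups for haem synthesis genes, megakaryocyte markers (3.25 and 3.32) and progenitor markers (0.32 and 0.50). It was not for the macrophage, mast cell and basophil, neutrophil or B and T cell lists. All 14 measured macrophage markers were lower too, with a median of −0.54, and their mean ran from −0.67 to 0.14 and from −1.32 to −0.14. Among them 2 were well above background on 3 of 4 Pcgf1 shRNA arrays and passed the filter only through the control cultures. Mouse 4 held the lowest macrophage value of the control cultures, as it did for Hmox1. With the Pcgf1 shRNA the lowest macrophage value was that of mouse 3 (−1.32, against −0.95 in mouse 4), while Hmox1 was lowest in mouse 4 (3.37). Within mouse 4 the macrophage median was −0.23, whereas Hmox1 was higher by 0.23. Spic, a factor of iron-recycling macrophages, read −0.79 (block 0.0681). The part of these cell types in the iron gene values was not tested, and in RNA of mixed cultures fewer cells of a type and less RNA per cell cannot be told apart.

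**Figure D5:**
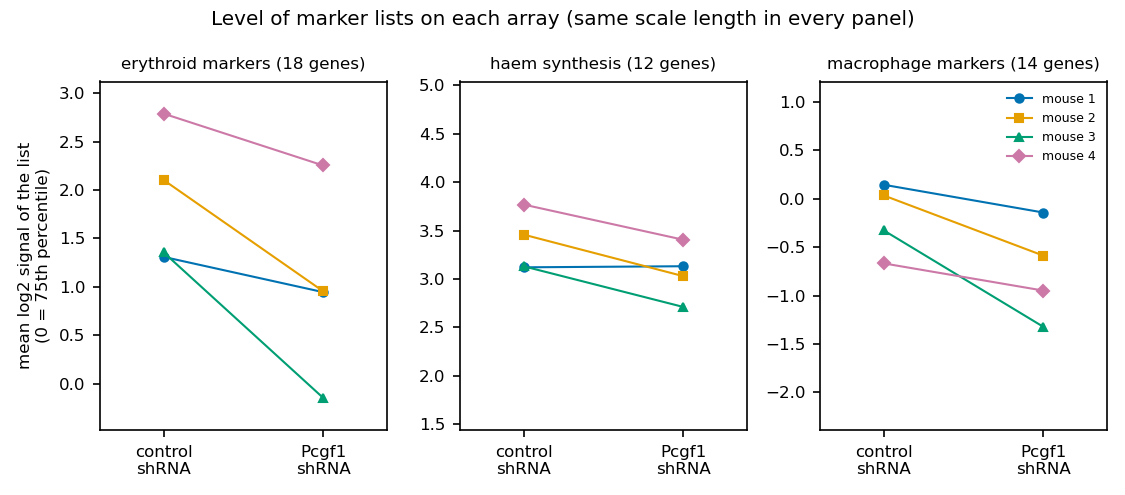
Mean log2 signal on each array of 18 erythroid markers, 12 haem synthesis genes and 14 macrophage markers, with 0 at the 75th percentile of the array; a line joins both cultures of a mouse. Mouse 4 is highest for the erythroid markers (2.79 and 2.25), and mouse 3 reaches the lowest value of both marker lists (−0.15 and −1.32) with the Pcgf1 shRNA.

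Remaining marker lists gave the RNA of markers of other cell types in the same mixed cultures. Of 8 measured neutrophil markers 7 were lower, and Cd177, named after its values were seen, read 0.02. Ltf and Ngp were well above background on 4 of 4 control arrays and 0 of 4 Pcgf1 shRNA arrays. They therefore passed the filter only through the control cultures. The others that fell with the block were S100a9 (−2.48), Mmp8 (−1.10) and, between these, S100a8 and Camp, none of which passed without it. Ngp was the only marker of the list that did (limma adjusted p 0.0287), and its Pcgf1 shRNA signals were not well above background. Mast cell and basophil markers had a median of −0.15 in 10 genes, 6 of them lower. Tpsb2, Cma1 and Mcpt4 fell with the block and Tpsb2 also without it. The genes above control, named after their values were seen, were Mcpt8 (0.59, block 0.121), Hdc (0.25, block 0.119), Gata2 (0.11) and Ms4a2 (0.06). Megakaryocyte markers had a median of −0.22 in 7 genes with 0 passing in either fit. Among 8 progenitor markers Cd34 rose in both fits (0.94) and Meis1 with the block (0.79), while Ly6a fell with the block (−0.68). The 5 measured B and T cell markers had a median of −0.28 and included Lck, which rose in both fits (0.91).

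Some genes followed single members closely over the 8 arrays, among 11248 genes with a symbol that were above background on all of them. Slc40a1 was followed by Septin4 and Scrn3 (Pearson r of 1.00 each; also 1.00 over the 6 arrays of mice 1 to 3), and Slc11a2 by Stn1 and Fn3k (0.98 each; 0.99 each without mouse 4). Tfrc was followed by Nanos1 (0.97) and Fhit (0.96), Slc25a37 by Tesmin (0.99) and Cox6b2 (0.98), and Steap3 by Dffb and Polb (0.99 each, but 0.88 and 0.87 without mouse 4). Hmox1 was followed by Fam219a and by Csf1, the macrophage growth factor gene (0.99 each), Ireb2 by Cpsf6 (0.97) and Cul2 (0.96), and Aco1 by Itgb1bp1 (0.99) and Rabif (0.95). Fth1 was followed by Rps12 (1.00) and Fau (0.99), both of which encode ribosomal proteins. These values describe 8 arrays that share their scaling and their mice, and they were picked as the highest of all genes searched.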

How the data were processed

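Per the file headers, the authors' deposited spot files give the processed intensity of each spot after background subtraction and detrending in Agilent Feature Extraction (10.1 per the submitters' processing notes), without normalization between arrays. The authors' deposited log2 value table, centred per probe, was an alternative (r of 1.00 and slopes from 0.998 to 1.00 against the spot files over 13561 bright probes; column medians 0.05, 0.11, 0.10 and −0.13 for control and 0.10, −0.05, −0.11 and −0.20 for Pcgf1 shRNA in mice 1 to 4). The direction is that of the intensities.

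Here log2 intensity was set to 0 at each array's 75th percentile (519 to 854). Control spots and 242 values of non-uniform spots were left out, and spots of a probe averaged. A probe stayed in if 1 group or both had it well above background on all 4 arrays (22737 of 41174; 24367 of all probes matched a RefSeq symbol of GRCm38.p6), and the brightest stood for a gene. The 2 groups were tested by limma 3.58.1 (lmFit and eBayes under R 4.3.3), two-sided, with Benjamini-Hochberg adjustment across genes and a threshold of 0.05, without a block and with mouse as a block. Same-mouse arrays correlated with r of 0.44, 0.48, 0.41 and 0.64 in mice 1 to 4 after removal of group means, across genes, which are not independent. Each slide (mice 1 and 2, mice 3 and 4) was also 1 scan and held both groups.

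The members and lists were chosen with earlier results of these data known. Named are all members, from each list the genes that passed in either fit and the 2 with the smallest p, and the 2 genes most like each member; others are said to be chosen after their values were seen. The result of 1 listed marker is not reported here.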

Additional observations from a re-analysis of the deposited data

Results flagged for a closer look

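Steap3 in the control culture of mouse 4 stood apart from the other 3 control cultures, at a log2 signal of −1.12 against −2.48 to −2.35. It was the 1 such case among 18 groups of 4 arrays examined (9 genes in 2 groups), where chance gives about 1 in 20. The Pcgf1 shRNA culture of mouse 4 was also the highest of its group (−1.75). The change of Steap3 was −0.34 over all arrays, −0.24 without both arrays of mouse 4 and −0.02 without its control array alone. The cause was not tested.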

How the results depend on the processing

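The 9 gene changes were recomputed under 30 alternatives, 4 of them chosen after seeing the data (quantile normalization, probe means, the authors' value table and normexp, each with the replicate block). Of these 270 values 249 kept their direction and side of the threshold, 14 passed it in addition, and 7 turned sign. Aco1 turned to 0.060 with median scaling, 0.065 with the mean of a gene's probes, with or without the block, 0.017 without mouse 4, with or without the block, and 0.0079 without the Pcgf1 shRNA array of mouse 4; Hmox1 turned to 0.0082 without that array. Leaving out mice or arrays moved Aco1 between −0.071 and 0.017 and Hmox1 between −0.58 and 0.0082. Tfrc stayed between −0.41 and −0.26 and Slc40a1 between −0.73 and −0.37. The 132 genes called over the whole array became 925 with the replicate block, 916, 857, 882 and 1571 with the block and quantile normalization, probe means, the value table or normexp, 1657 with array weights, and 0 without the filter on dim probes (limma, 2199 at an unadjusted p under 0.05); leaving out mice or arrays gave 0 to 363, with the block 0, 145, 284 or 306. The 0 iron genes called became 2 with the block, also with quantile normalization, probe means or the value table, 3 with normexp and the block (Slc11a2 at an adjusted p of 0.0206 beside Tfrc and Slc40a1), and 2 with array weights (Tfrc and Slc11a2); leaving out mice or arrays gave 0 to 1. Their median change then ran from −0.36 to −0.15. With median scaling the median change of the iron genes was −0.13, where the median of all genes was 0.10. All 13 iron gene probes were well above background on all 8 arrays.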
